A study of Saccharomyces cerevisiae with 5 samples.

Results

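The hexose transporter genes HXT1 to HXT10 of the budding yeast Saccharomyces cerevisiae were followed on 5 arrays. They were chosen by gene symbol in the annotation of the array spots, and all 10 were present among the 5583 genes annotated in all. In a table of 3 arrays they were represented by 11 spots, with 2 spots for HXT2 and 1 for each other gene, and in a table of 2 arrays by 20 spots, 2 adjacent spots for each gene. Each array was a hybridisation with 2 channels. It set cDNA made from RNA that was immunoprecipitated with zz-tagged Yra1 against cDNA made from RNA that was immunoprecipitated with the zz tag alone, which is the control carrying the tag without the protein. Yra1 is an adaptor of nuclear mRNA export, and the comparison asked which transcripts came down with it. The 5 arrays formed 1 group and are numbered as replicates. Channel 2 held the zzYra1 immunoprecipitate on arrays 1, 2 and 5, while arrays 3 and 4 had it in channel 1, per the labels. The sources used here do not give the strain, the growth medium, the glucose concentration, the expression of the tagged protein or whether the arrays came from separate cultures. The p-values therefore measure only the spread between arrays, which may be technical, and the small number of arrays limits their precision.

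Hexose transporters are proteins of the plasma membrane that let glucose and fructose diffuse into the cell, the step before phosphorylation and glycolysis. Yeast makes different members according to the glucose supply: HXT1 and HXT3 encode low-affinity carriers used when glucose is plentiful, HXT2, HXT6 and HXT7 encode high-affinity carriers used when it is scarce, and HXT4 encodes a carrier of intermediate to high affinity. The sensors Snf3 and Rgt2 and the repressors Rgt1 and Mig1 set which of these genes are transcribed. HXT5 is transcribed in slow growth and stationary phase, and HXT8, HXT9 and HXT10 are usually expressed at low levels, with a minor part in glucose uptake. HXT6 and HXT7 are nearly identical in sequence and are direct neighbours in the order of coding genes of the reference annotation. HXT1 and HXT5 are also direct neighbours, with 1 coding gene, AHT1, between HXT1 and HXT4.

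Values were deposited as log10 ratios of the channels. Here they are log2 ratios, as the mean of a gene's spots relative to the median gene of the same array, so a value of 0 is the median gene of that array. Signs are as deposited unless stated. They do not tell which immunoprecipitate held more of an RNA, because the labels do not say which channel was the numerator or whether the authors had turned arrays 3 and 4. The data did not settle it: over the 6 pairs of arrays with opposite orientation the median Pearson correlation across genes was -0.000449. Over all 10 pairs the correlation lay between -0.0816 and 0.0468. The 4 pairs with the same orientation should run the same way under either reading, yet their correlations lay between -0.0816 and -0.0181. The arrays thus did not reproduce each other across genes, which limits every value per gene given below. These correlations are a description, since genes are no independent replicates. Array 4 stood apart by its spread, with a standard deviation over genes of 2.51 log2 units, against 0.91 to 1.14 on the other arrays, so a value of given size means less there.

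The transporter genes gave 31 values of 50 possible, and no member had a value on all 5 arrays. On array 4, 8 of the 10 transporter genes had a value, while 23.9% of all genes on its table did. On array 3 all 10 members had a value, but so did 97.6% of all genes. On array 2 the count was 6 of 10, beside 51.1% of all genes, and on array 1 it was 4 of 10, beside 44.3%. On array 5 it was 3 of 10, beside 19.8%. The sources used here do not say why values are missing, and no intensities were used, so whether the presence of a value follows the amount of RNA was not tested.

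The major carriers HXT1 to HXT7 had 23 of 35 possible values and HXT8 to HXT10 had 8 of 15. On arrays 4 and 5 the major carriers were measured in 6 of 7 and 3 of 7 cases, and HXT8 to HXT10 in 2 of 3 and 0 of 3. Array 1 gave 3 of 7 and 1 of 3, and array 2 gave 4 of 7 and 2 of 3. With 3 genes in the minor group a single gene moves its share by 33.3 percentage points, and the shares were not tested against each other. HXT1, HXT2, HXT6 and HXT7 had values on 4 arrays each, HXT4, HXT8 and HXT10 on 3, and HXT3, HXT5 and HXT9 on 2.

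**Figure D1:**
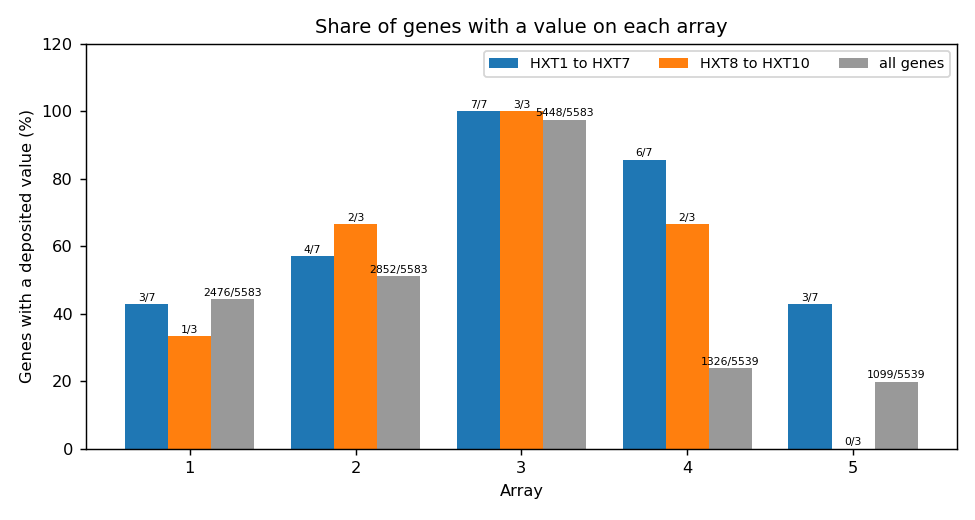
Share of genes with a deposited value (vertical axis, percent) on each of the 5 arrays, for HXT1 to HXT7, HXT8 to HXT10 and all genes on the array's table; the fractions above the bars are genes with a value over genes on the table. On array 4 the transporter bars, at 6 of 7 and 2 of 3, stand above the 23.9% of all genes, and on array 5 no gene of HXT8 to HXT10 had a value.

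Of the low-affinity carriers, HXT1 held the highest value of any transporter gene. Its log2 ratios were -0.03 on array 2, -0.17 on array 3, 4.59 on array 4 and -1.02 on array 5. It was near the median gene on arrays 2 and 3, below it on array 5 and far above it on array 4 alone. On array 4 it ranked 52 from the top among 1326 genes, at 1.83 standard deviations of that array, and its adjacent spots there gave 4.50 and 4.69. On array 5, which carries the same day as array 4 in the labels, its spots gave -0.91 and -1.13. Adjacent spots thus lay within 0.22 log2 units of each other on both arrays. HXT3, the other low-affinity carrier, had values on the arrays of 1 orientation only, -0.32 on array 3 and 0.22 on array 4. Both lie close to the median gene, with 35.5% and 53.9% of the genes of those arrays below them.

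HXT4, the carrier of intermediate affinity, gave 0.13 on array 1, -0.28 on array 3 and -3.77 on array 4. Only the value on array 4 was far from the median gene, and there the adjacent spots were at -4.64 and -2.89, both low but 1.75 log2 units apart. The direct neighbour of HXT1, HXT5, stood out on both arrays that measured it. HXT5, the carrier of slow growth, gave 1.91 on array 1 and 1.78 on array 3, and ranked 125 from the top of 2476 genes and 80 from the top of 5448. These arrays have opposite orientations. If the signs of channel 1 arrays are turned, the values become 1.91 and -1.78 and cancel.

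Among the high-affinity carriers, HXT2 gave -0.35 on array 1, 0.23 on array 2, -1.25 on array 3 and -3.70 on array 4. It was lowest on the 2 arrays with zzYra1 in channel 1 and near the median gene on the others. Its value on array 3 rests on 2 spots that disagreed, at 0.15 and -2.65. The value of array 2 comes from the first of these spots alone and that of array 1 from the second alone. On array 4 its adjacent spots gave -3.46 and -3.94. The HXT2 value on array 4 was -0.37 when each spot was set against the median of those around it, within 10 spot numbers. At least 5 values were required, and the gene's own adjacent spot was among them.

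HXT6 gave 1.33 on array 2, 0.59 on array 3, -0.21 on array 4 and 1.24 on array 5. It was above the median gene on 3 of 4 arrays, with 92.0%, 74.7%, 46.2% and 84.3% of the genes of arrays 2 to 5 below it. HXT7 gave 1.10 on array 2, 0.47 on array 3, -1.04 on array 4 and -0.33 on array 5. It was above the median gene on arrays 2 and 3 and below it on arrays 4 and 5. Arrays 2 and 5 have the same orientation, and of the copies HXT6 alone was high on both.

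**Figure D2:**
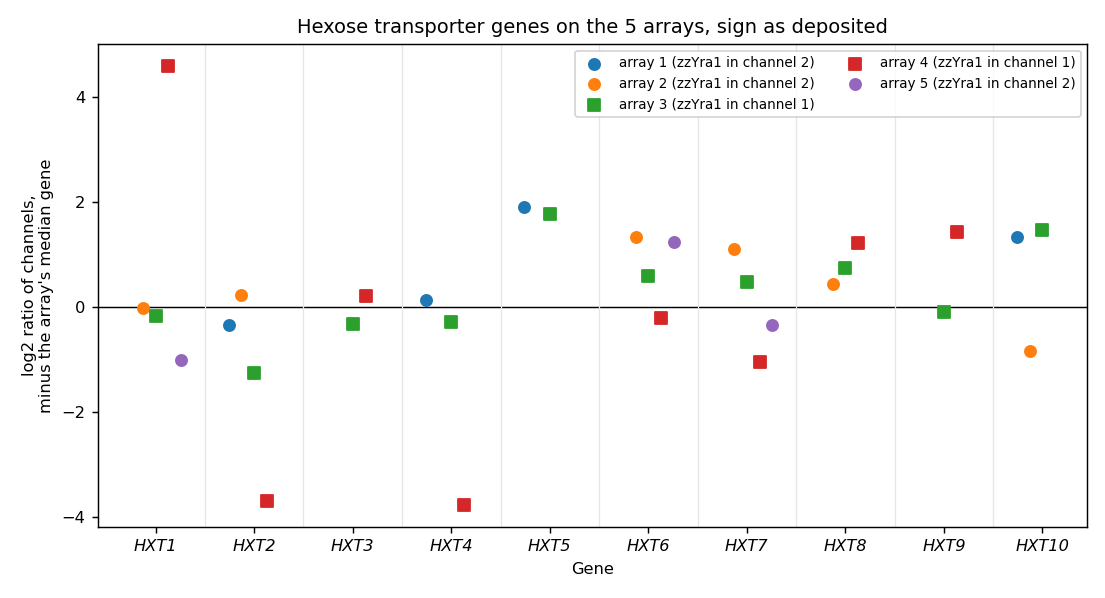
Log2 ratio of the channels relative to the array's median gene (vertical axis, log2 units, sign as deposited) for each transporter gene (horizontal axis); circles are arrays with zzYra1 in channel 2 and squares arrays with zzYra1 in channel 1, with 1 point for each gene and array that had a value. HXT1 at 4.59, HXT2 at -3.70 and HXT4 at -3.77, all on array 4, lie farthest from 0, and HXT5 lies near 1.9 and 1.8 on arrays 1 and 3.

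The minor carriers were measured in few cases. With signs as deposited HXT8 was above the median gene wherever it was measured, at 0.43 on array 2, 0.75 on array 3 and 1.23 on array 4. The adjacent spots of array 4 gave 0.49 and 1.97. Array 2 has the opposite orientation to arrays 3 and 4. If the signs of channel 1 arrays are turned, the HXT8 values become 0.43, -0.75 and -1.23. HXT9 gave -0.09 on array 3 and 1.44 on array 4, from spots at 2.02 and 0.85. HXT10 gave 1.33 on array 1, -0.84 on array 2 and 1.47 on array 3. It was high on arrays 1 and 3, like HXT5, and low on array 2, which has the same orientation as array 1. No member of this group had a value on array 5.

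As a group the transporter genes did not lie to one side of the median gene. On arrays 1 to 5 their medians were 0.73, 0.33, 0.19, 0.00 and -0.33 over 4, 6, 10, 8 and 3 genes, where the median over all genes is 0 by construction. They were above the median gene in 3 of 4, 4 of 6, 5 of 10, 4 of 8 and 1 of 3 cases. At least 1 log2 unit from the median gene lay 2 of 4 members on array 1, beside 18.8% of all measured genes, and 2 of 6 on array 2, beside 20.9%. The counts were 3 of 10 on array 3 (25.8% of all genes), 6 of 8 on array 4 (67.8%) and 2 of 3 on array 5 (36.2%). With so few members these counts are near the background on arrays 3 and 4, and each changes much with a single gene on the other arrays. The members also varied among themselves about as much as all genes did: their standard deviation was 1.04, 0.79, 0.90, 2.76 and 1.16 on arrays 1 to 5, beside 1.09, 0.91, 0.91, 2.51 and 1.14 over all genes.

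**Figure D3:**
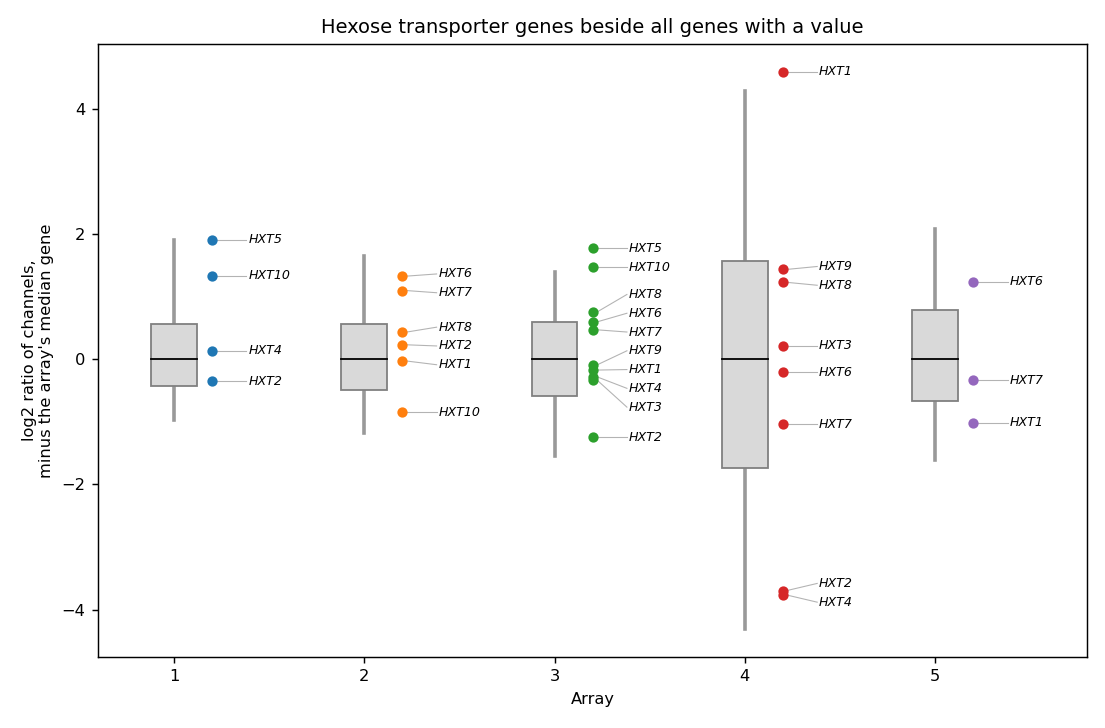
Log2 ratio relative to the array's median gene (vertical axis, log2 units) on each array (horizontal axis): grey boxes span the 25th to 75th and grey lines the 5th to 95th percentile of all measured genes, and coloured points are the transporter genes. HXT1 on array 4 and HXT5 and HXT10 on array 3 lie above the 95th percentile.

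The near-identical copies HXT6 and HXT7 can bind the same cDNA. HXT6 exceeded HXT7 by 0.23 log2 units on array 2, 0.12 on array 3, 0.83 on array 4 and 1.57 on array 5. The sign on array 3 turned, to -0.16, when spots were taken relative to those around them. The pair lay close together on arrays 2 and 3 and apart on array 5. For scale, 2 spots of different genes differed by a median of 0.79, 0.91, 2.34 and 1.09 log2 units on arrays 2 to 5. Adjacent spots of a single gene differed by a median of 0.45 on array 4 (914 pairs) and 0.28 on array 5 (737 pairs). The difference between HXT6 and HXT7 on array 5 also exceeded the 90th percentile of these adjacent pairs, which was 1.08. It lay below that of spots of different genes on that array, which was 2.72. HXT6 and HXT7 are not duplicate spots of a single gene, and array 5 gave no scale from spots of a single gene that are not adjacent. There HXT6 had a value at 1 of its 2 spots, at 1.24, and HXT7 at both, at -0.55 and -0.12. On arrays 1 to 3 the spots of a single gene that are not adjacent differed by a median of 0.86, 0.75 and 1.03, against 0.75, 0.79 and 0.91 for spots of different genes. They lay closer together than spots of different genes on array 2 alone, and by little. The closeness of HXT6 and HXT7 on arrays 2 and 3 is a single pair on each array and was not tested.

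**Figure D4:**
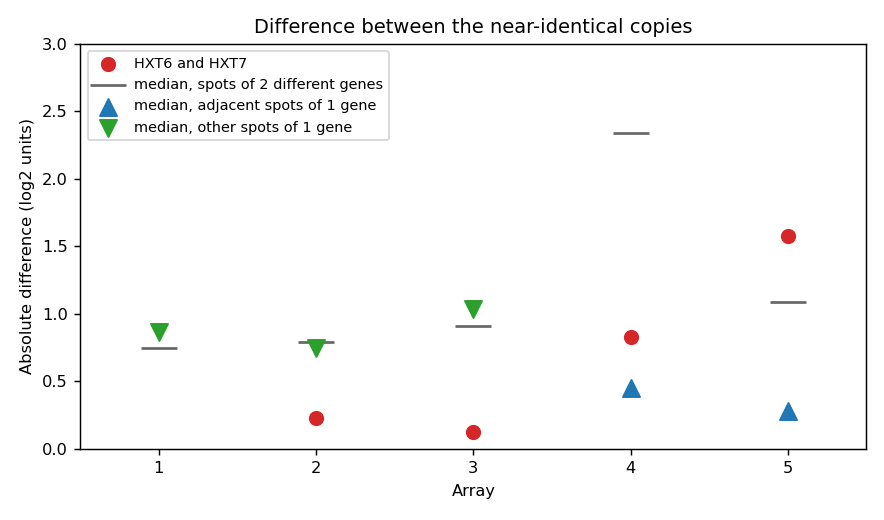
Absolute difference between HXT6 and HXT7 (red points, log2 units on the vertical axis) on the arrays that measured both, beside the median difference between spots of different genes (grey bars), between adjacent spots of a single gene (upward triangles, arrays 4 and 5) and between other spots of a single gene (downward triangles, arrays 1 to 3). The red points are at 0.23, 0.12, 0.83 and 1.57 on arrays 2 to 5, and on array 5 the point lies above both medians.

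Only 4 of the 10 members, HXT1, HXT2, HXT6 and HXT7, had the 4 values needed to enter the fit of all arrays; 725 of 5583 genes, 13%, did. No transporter gene passed the threshold (limma moderated test, two-sided, Benjamini-Hochberg adjusted p under 0.05), and neither did any other gene, so 0% of the genes tested were called. Because the direction of the ratios is unsettled, each gene has 2 fitted values. The channel reading takes the same channel as numerator throughout and turns the signs of arrays 3 and 4, while the other reading keeps the deposited signs. In the channel reading 19 of 725 genes had an unadjusted limma p under 0.05 (2.62%), and in the other reading 25 did (3.45%). None of these was a transporter gene. The median of the 4 members was 0.44 and 0.39 in these readings, beside 0.06 and 0.07 over all genes tested.

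In the channel reading HXT1 lay at -1.37 ± 0.77 (log2, SE, n = 4 arrays; 95% interval -3.14 to 0.41, limma adjusted p = 0.905), and in the other at 0.84 ± 0.77 (interval -0.93 to 2.61, limma adjusted p = 0.903). HXT2 lay at 1.21 ± 0.58 (interval -0.13 to 2.54, limma adjusted p = 0.905) and at -1.27 ± 0.58 (interval -2.60 to 0.07, limma adjusted p = 0.903). No interval of these 2 genes excluded 0. HXT6 lay at 0.55 ± 0.51 and 0.74 ± 0.51, and HXT7 at 0.33 ± 0.56 and 0.05 ± 0.56, with limma adjusted p-values of 0.903 or more. The intervals of HXT6, -0.62 to 1.71 and -0.42 to 1.90, include 0. In the channel reading its value was 0.34 without array 4, 0.22 without centring and 0.75 without array 3. In the other reading it was 0.94 without array 4, 1.26 without centring and 0.54 without array 3.

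The values of HXT1 and HXT2 depend on arrays 3 and 4. Without array 3, HXT1 passed in both readings, at -2.56 ± 0.67 (limma adjusted p = 0.00373) and 2.04 ± 0.67 (limma adjusted p = 0.0246). HXT2 passed in the other reading, at -1.88 ± 0.67 (limma adjusted p = 0.0427), and not in the channel reading, at 1.82 ± 0.67 (limma adjusted p = 0.0579). In that fit the calls were 68 of 602 genes (11.3%) and 80 of 602 (13.3%) in these readings. Array 4, the array with the widest spread, is then alone in its orientation and does not contribute to the residual variance. With all arrays brought to equal spread beforehand, an alternative chosen after seeing the data, no gene passed without array 3. Without array 4 HXT1 was at -0.17 (channel reading) and -0.35 (other reading), and HXT2 was at 0.59 and -0.65, so that in the other reading both were below 0.

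**Figure D5:**
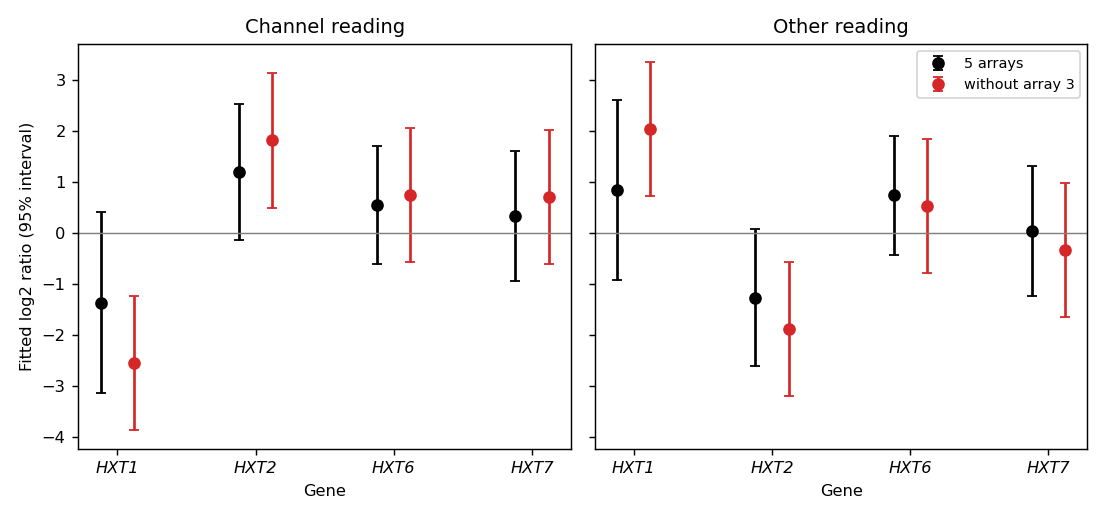
Fitted log2 ratio (points) with its 95% interval (bars) for the transporter genes tested, in the channel reading (left) and the other reading (right), from 5 arrays (black) and without array 3 (red). With 5 arrays every interval includes 0; without array 3 HXT1 is at -2.56 and 2.04 and HXT2 at 1.82 and -1.88.

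Arrays of a single orientation run the same way under either reading. On arrays 3 and 4 values existed for 8 members, all but HXT5 and HXT10, and 3 of the 8 had the same sign on both arrays. Their means were 2.21 for HXT1, -0.05 for HXT3, -2.47 for HXT2, -2.02 for HXT4, 0.19 for HXT6, -0.28 for HXT7, 0.99 for HXT8 and 0.67 for HXT9, each with an SE of 1.36. None passed in limma, where the smallest adjusted p among them was 0.958 and 0 of 1300 genes (0%) were called. HXT8, at 0.75 and 1.23, and HXT2, at -1.25 and -3.70, kept their sign on both arrays, as did HXT4, at -0.28 and -3.77. No member had a value on all of arrays 1, 2 and 5. When genes on at least 2 of these arrays were fitted, 5 members had values on 2 arrays each. HXT6 averaged 1.28 ± 0.63 (SE, n = 2 arrays; unadjusted p = 0.0561 in limma). HXT7 averaged 0.38 ± 0.65, HXT10 0.24 ± 0.68, HXT2 -0.06 ± 0.63 and HXT1 -0.52 ± 0.64. Each had an adjusted limma p of 0.998. None of the 5 had an unadjusted p under 0.05, beside 90 of 1846 genes (4.88%).

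Within the table of arrays 4 and 5, HXT1, HXT6 and HXT7 were tested. HXT1 had an unadjusted limma p of 0.0364 in the channel reading, at -2.80 ± 1.15, where 14 of 546 genes (2.56%) had one under 0.05, and its adjusted p was 0.950. With arrays centred on the mean gene its unadjusted limma p was 0.0617. Within the table of arrays 1 to 3, HXT2 and HXT10 had values on all arrays and neither passed in limma (adjusted p of 0.962 or more). When genes on at least 2 of these 3 arrays were fitted, HXT5 reached 1.84 ± 0.51 in the other reading (n = 2 arrays; unadjusted p = 0.00855, adjusted p = 0.964 in limma) and 0.06 ± 0.72 in the channel reading (limma adjusted p = 0.999). HXT5 was the only one of 8 members in that fit with an unadjusted p under 0.05 in the other reading, beside 150 of 3968 genes (3.78%).

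The genes around glucose uptake did not pass either. Of 34 genes in 5 lists, 7 had 4 or more values. In the fit of all arrays 0 of these were called, and 0 had an unadjusted limma p under 0.05 in either reading. Among the hexose kinases, HXK1 lay at -1.12 ± 0.60 (channel reading) and 0.39 ± 0.60 (other reading), and HXK2, the main kinase of growth on glucose, at 0.38 ± 0.58 and -0.61 ± 0.58. Of the 8 glucose repression genes, CYC8, part of the Tup1 co-repressor, lay at 0.35 ± 0.50 and -0.58 ± 0.50, and GLC7, the catalytic subunit of a protein phosphatase, at -0.08 ± 0.59 and 0.44 ± 0.59. Of the other sugar transporters the maltose permease gene MAL31 lay at 0.24 ± 0.57 and -0.09 ± 0.57, the related MPH2 at -0.34 ± 0.51 and 0.12 ± 0.51, and MPH3 at 1.02 ± 0.59 and -0.87 ± 0.59. No gene among the 8 sensors and signalling genes was measured often enough for the fit of all arrays. On array 3, where all 8 had a value, they ran from -1.04 to 1.80 with a median of 0.07.

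The genes most like each tested member were taken by the smallest root mean square difference over the 4 arrays it was measured on. Candidates were the genes with values on the same arrays. Among 320 candidates for HXT2 there was no other hexose transporter gene. HXT1, HXT6 and HXT7 had only each other among 330 candidates. The ranking therefore cannot tell whether transporter genes resemble each other. For HXT1 the most alike were ARP8, of a chromatin remodelling complex (0.54 log2 units), and PMD1 (0.62). For HXT2 they were OCH1, a mannosyltransferase of the Golgi (0.32), and PCL7, a cyclin (0.45). For HXT6 they were POL1, of DNA polymerase alpha (0.49), and NUP84, of the nuclear pore (0.54), and for HXT7 they were YER034W (0.18) and FUN30, a chromatin remodeller (0.28). HXT7 ranked 24 among 330 genes in likeness to HXT6, at 0.90, and HXT1 ranked 312, at 2.76.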

How the data were processed

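The values were deposited by the authors as log10 ratios of 2 channels, with 1 column for each of 5 arrays in 2 tables. The scale was settled from the deposited values: of 400 per array, read as log10, 28.5% to 81.75% were whole-number ratios (denominators up to 3000, matching within 1e-09 on the log scale), and at most 1.75% when read with base 2 or e. The sources used here do not give the scanner, dyes, background correction, filters or genome build, so no coordinates are printed, and no intensities were used. Deposited columns were not centred, with medians of -0.343 to 0.800.

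A factor of 3.32 converted the ratios to log2; a gene's spots were averaged, and every array was centred on its median gene, without loess or quantile normalisation. Spots carried 1 gene symbol at 6695 of 7680 spots and at 11138 of 12800. Symbols were updated through gene identifiers to the R64 gene table, which matched 5578 of 5583 and 5534 of 5539 genes, and which also gave the order of genes. Repeated rows (3 and 1) were averaged, and 1 row without a spot number was left out.

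Genes with values on at least 4 arrays were fitted in limma 3.58.1 (R 4.3.3), with orientation as an additive term, and p-values were adjusted over all genes tested. The script was tested on simulated data. Alternatives covered centring, scaling, spots of neighbouring number, spot averaging, the filter on missing values, the orientation term and leaving out each array. Positions on the slide were not used. Named are all members, genes of 5 pathway lists measured on at least 4 arrays, and the 2 genes most like each tested member. The values of the other hexose transporter family members in the closing section were added after they were seen. Members and lists were chosen with earlier results of these data known. Sequences were not used here.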

Additional observations from a re-analysis of the deposited data

Results flagged for a closer look

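Sets of values over 4 or 5 arrays were examined for a single distant array. This was found in 2 of 27 sets, and about 1 in 20 (1.35) would be by chance. Both concern the spread of array 4. The standard deviation over all genes was 2.51 log2 units there, against 0.91 to 1.14 on the others. Over the hexose transporter genes it was 2.76 on array 4, against 0.79 to 1.16, so the width of the transporter values there goes with that of all genes.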

How the results depend on the processing

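Each ratio already compares the 2 immunoprecipitates within an array. No further pairing between arrays was used, since the arrays form 1 group and the labels name no pairs. Arrays 4 and 5 carry the same day in the labels and have opposite orientations. Arrays 4 and 5 as a random block could not be fitted: a correlation was estimated for 0 of 725 genes. Averaged into 1 replicate, a step chosen after seeing the data like the scaling with an array left out, they gave 0 calls in both readings. Leaving out an array gave 0 to 68 calls among all genes in the channel reading and 0 to 80 in the other, and 0 to 1 and 0 to 2 calls among transporter genes. The cause was not tested. With arrays scaled to equal spread the ranges were 0 to 3 and 0 to 4, with no transporter gene. Genes on at least 2 arrays gave 4 calls within the table of arrays 1 to 3 (channel reading), and centring on the mean gene gave 3 within arrays 4 and 5 (other reading). HXT7 turned in the channel reading, to -0.025 and -0.045 without arrays 2 and 4 (range -0.045 to 0.71) and -0.22 without array 2 after scaling (range -0.22 to 0.80). In the other reading it turned to -0.31 and -0.33 without arrays 2 and 3 (range -0.33 to 0.43) and -0.15 without array 2 after scaling (range -0.15 to 0.87). HXT1 turned in the other reading, to -0.35 without array 4 (range -0.35 to 2.04), and after scaling to -0.41 without array 4 and -0.064 without array 2 (range -0.41 to 0.81). The transporter medians moved without centring to 3.43, -0.81, 1.53 and 1.19 on arrays 1, 2, 4 and 5, with scaling to 1.21 on array 1, and with each spot set against its neighbours to 1.81 on array 4, over 4 genes instead of 8. That step left 26 of 31 member values, of which 2 changed sign, and on array 4 it put HXT2 at -0.37 and HXT8 at 3.00. The 10 recomputed differences between HXT6 and HXT7 moved by less than the spread of that difference between arrays, although that on array 3 turned to -0.16 in this step. No depth was recorded, so signal over background is unknown.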

Other observations

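The other members of the hexose transporter family, HXT11 to HXT17 and the galactose permease gene GAL2, were measured less completely and none entered the fit of 5 arrays. All 8 had a value on array 3, 4 on array 1, 3 on array 2, 2 on array 4 and 0 on array 5. Their values on array 3 ran from -1.01 to 1.11, with a median of 0.37. HXT15 and HXT16, which are near-identical, gave 1.11 and 0.69 on array 3 but 2.90 and 0.18 on array 1, a difference of 2.72 log2 units there. HXT9 and HXT11, another closely related pair, gave -0.09 and -0.33 on array 3. HXT13 and HXT17 gave 0.39 and -0.15 on the same array. These pairs were named after their values were seen.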
